A study of Drosophila melanogaster with 10 samples.

Results

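The resting adult ventral nerve cord (VNC) of Drosophila melanogaster is described here from the 5 uninjured RNA-seq libraries of a series of 10, taken by their columns in the deposited tables of counts and levels. The other 5 libraries, from injured flies, enter no value given here. Each uninjured library came from w1118 flies, a white-eyed laboratory strain with no transgene, reared at 25 °C and kept without food for 5 hr in vials of 2% agar before dissection. The labels give about 30 males and 30 females per sample, 3 to 10 days of age and 60 to 80 dissected VNCs. These are the labels' conditions, and the sources state the age, the number of VNCs and the medium of the vials differently from each other. A library is therefore a mean over many flies of both sexes, and nothing in it separates sexes, ages or cell types. In such bulk tissue fewer cells of a type and less RNA per cell cannot be told apart. The count columns carry the numbers 1 to 5, which the sources do not tie to the letters in the sample labels, so the libraries below are named by column.

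The VNC is the counterpart of the vertebrate spinal cord. It holds the leg, wing and abdominal motor circuits, whose neurons use acetylcholine, GABA, glutamate, monoamines and peptides, and several kinds of glia: astrocyte-like glia that clear transmitter from the neuropil, ensheathing glia that wrap it and engulf debris, cortex glia around cell bodies, and the 2 layers of the blood-brain barrier. Hox genes pattern it along the body axis. Total RNA was depleted of ribosomal RNA without poly(A) selection, so small and non-polyadenylated RNAs stayed in the libraries. The gene counts summed to 5763891 to 6640492 per library out of 13.5 to 15.6 M reads, of which 41.3 to 43.4% fell in exons, 8.39 to 9.16% in introns and 19.5 to 22.4% in rRNA or snRNA. Levels are the deposited TPM, which are counts per kilobase of the longest transcript per M mapped reads (M, 1000000). They sum to 288711 to 317408 per library, not to 1 M. The lowest deposited count is 1, which therefore need not mean that a read was seen, and 595 genes had that count in all 5 libraries.

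Of 14351 genes, 9150 (63.8%) had a mean above 2 TPM, the level above which a gene is taken as expressed below. Single libraries had 8848 to 9292 genes above 2 TPM, 8369 genes were above it in each of the 5 libraries and 9777 in at least 1. Of the 12335 protein-coding genes 7969 (64.6%) were expressed, and of the 824 noncoding genes and pseudogenes 390 (47.3%) were. Levels spanned several orders of magnitude: 4866 genes were above 10 TPM, 428 above 100 TPM and 16 above 1000 TPM. Of those 16, only 2 were protein-coding.

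**Figure D1:**
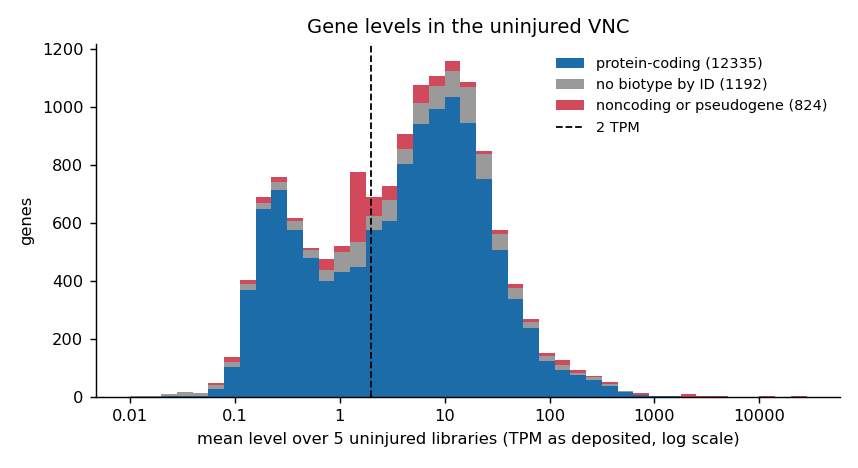
Number of genes (vertical axis) by mean level over the 5 uninjured libraries (horizontal axis, TPM as deposited, log scale), stacked by biotype, with a dashed line at 2 TPM. The protein-coding genes form a main peak near 10 TPM and a lower peak below 1 TPM, and 9150 of 14351 genes lie to the right of the line.

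The highest levels belonged to small and structural RNAs. The small noncoding RNA sncRNA:765, 0.046 kb long, stood at 22295 ± 933 TPM (SD, n = 5, as for all errors below), which was 7.35% of the summed level of all genes. Its level was 23105, 22757, 22448, 22469 and 20695 TPM in libraries 1 to 5, so library 5 was lowest and the other 4 lay close together. The long noncoding RNA noe came next with 10928, 10378, 11950.1, 10616 and 12307 TPM, and 1.79% of all gene counts, more than any other gene. Libraries 3 and 5 were highest for noe and library 2 lowest. Below them came sncRNA:357 at 3728 ± 432 TPM and snRNA:7SKa, the RNA that holds the elongation factor P-TEFb inactive, at 2717 ± 163 TPM. The same group held the U3 snoRNAs of pre-rRNA processing at 2360.4 ± 308 TPM for snoRNA:U3:54Aa, tRNA:Tyr-GTA-1-9 at 2134 ± 476 TPM, RNaseP:RNA, which trims tRNA precursors, at 2060.1 ± 184 TPM, and the signal recognition particle RNA 7SLRNA:CR32864 at 1951 ± 364 TPM. Copies of U3, tRNA and U1 snRNA genes are near-identical, and how the counting divided reads among them is not known.

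Which transcripts are most abundant depended on whether length was taken into account. The 20 genes with the highest TPM had a median length of 0.173 kb, 13 of them were under 0.3 kb and 5 were protein-coding, whereas the 20 with the highest count had a median length of 9.75 kb and 14 were protein-coding. Only 2 genes were in both sets, noe and Atpalpha, the latter encoding the catalytic subunit of the sodium pump. The 510 genes under 0.1 kb, shorter than the 100 bp reads, held 14.1% of the summed level and 0.348% of the counts. Genes of 3 kb or more held 61.4% of the counts. The 20 genes with the highest counts took 10.6 ± 0.505% of all counts, and 592 genes took 50% of them.

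Among long transcripts, Msp300, a giant spectrin-repeat protein of the nuclear envelope, had 1.25% of the gene counts at 196 ± 8.19 TPM. The microtubule-associated protein futsch had 0.919% at 279 ± 21.8 TPM, and Atpalpha 0.781% at 952 ± 113 TPM. Next came IA-2, a protein of dense-core vesicles, at 473 ± 33.1 TPM, the cytoskeletal linker shot at 103.8 ± 4.66 TPM and the synaptic vesicle clamp cpx at 274 ± 34.3 TPM. Apart from Msp300, whose 196 TPM is also the highest level in the muscle marker list, these act in neurons, alone or with other cells. The lipoprotein apolpp, made by the fat body, was also among the 10 highest counts, at 197, 265, 252, 264 and 208 TPM in libraries 1 to 5. Libraries 1 and 5 were the lowest for apolpp.

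By level, the leading protein-coding genes formed a mixed group. whe (1406 ± 1158 TPM), CG16826 (1105 ± 949.8 TPM) and lcs (743 ± 613 TPM) were high on average, but their SD was nearly as large as their mean, and they are taken up below with the genes of wide spread. Genes with smaller spread stood among and behind them: Atpalpha, the mitochondrial ADP/ATP carrier sesB at 882 ± 39.4 TPM, the ATP synthase subunit ATPsynbeta at 654 ± 30.5 TPM, and Argk1, the arginine kinase that buffers ATP, at 560.1 ± 17.2 TPM. Argk1 was 564, 533, 578, 556 and 570.1 TPM, with no library standing apart. The GABA-synthesizing enzyme Gad1, at 623 ± 76.0 TPM, led the transmitter markers, and stood near Ggamma1, a G protein subunit, at 522 ± 32.3 TPM. The translation factors eEF1alpha1 (612 ± 124 TPM) and eEF2 (609 ± 38.3 TPM) were of the same level, while eEF1alpha1 spread more widely between libraries. Yolk protein transcripts, which females make in fat body and ovary, were in this range too, with Yp1 at 761 ± 309.5 TPM, Yp3 at 599 ± 259 TPM and Yp2 at 558 ± 254 TPM. The neighbours Adh and Adhr had the same count in every library, 9269, 10225, 9953, 9082 and 9905, as did stnA and stnB, and each of these pairs is transcribed as a single dicistronic RNA. In all, 78 sets with 161 genes had identical counts, and the separate levels of their members cannot be told apart.

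The functional classes were compared by their summed level, as a share of that of all genes. The 87 cytoplasmic ribosomal protein genes held 7.29 ± 0.509%, more than any other class of protein-coding genes, and 82 of them were expressed. The highest was RpL41 at 833 ± 123 TPM. The 218 snoRNA genes held 6.55 ± 0.564%, the 110 long noncoding RNAs 3.87 ± 0.404%, nearly all of it noe, and the 29 snRNA genes 1.54 ± 0.159%. The 20 synaptic vesicle release genes held 0.926 ± 0.103%, close to the 289 tRNA genes (0.918 ± 0.134%) and the 16 ATP synthase genes (0.887 ± 0.0452%). Translation elongation (0.795 ± 0.0512%), pumps and exchangers, respiratory complex I, the V-ATPase, glycolysis and neuropeptides followed, each at 0.660 to 0.795%. Since all shares are of levels per kilobase, classes of short genes weigh more here than in counts, where the ribosomal proteins held 2.89%.

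**Figure D2:**
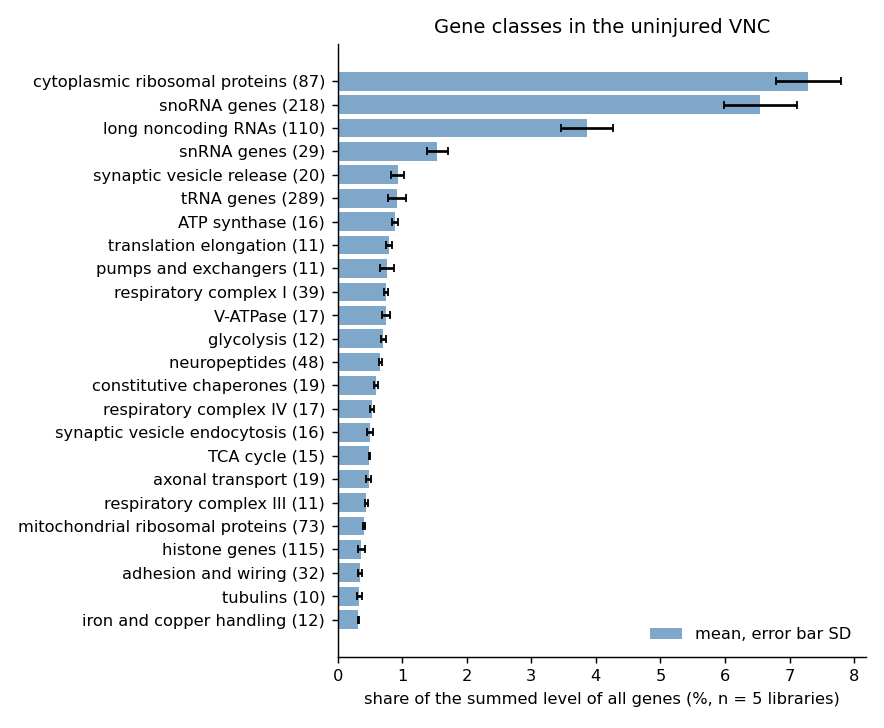
Share of the summed level of all genes held by each of 24 gene classes (horizontal axis, %), with the number of measured members in brackets. Bars are means and error bars the SD of 5 uninjured libraries. Cytoplasmic ribosomal proteins (7.29%) and snoRNA genes (6.55%) lead, and synaptic vesicle release (0.926%) stands with the ATP synthase (0.887%).

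The classes of energy metabolism were expressed almost in full, and their summed levels varied little. All 12 glycolysis genes were above 2 TPM, led by PyK, the pyruvate kinase, at 393 ± 12.7 TPM and Gapdh2 at 389 ± 17.5 TPM, while Ldh, lactate dehydrogenase, was lowest at 4.13 ± 1.51 TPM. The summed glycolysis level was 2048 to 2226 TPM over the 5 libraries, a coefficient of variation (CV, SD over mean) of 3.50%. All 15 TCA cycle genes were expressed, with a summed CV of 2.53%, as were 36 of 39 complex I genes (CV 2.81%), 13 of 16 ATP synthase genes (CV 3.61%) and all 73 mitochondrial ribosomal proteins (CV 1.81%). Single members varied more, with a median member CV of 5.51% for glycolysis and 10.8% for the mitochondrial ribosomal proteins. The median over all expressed genes was 9.62%. In ion transport, the sodium pump dominated: Atpalpha was 1028, 855, 901, 865 and 1112 TPM, and its beta subunits nrv2, found in glia, and nrv3, found in neurons, were at 542 ± 88.5 and 301 ± 36.3 TPM. Libraries 5 and 1 were the highest for Atpalpha. Of the other pumps, the calcium pump PMCA stood at 166 ± 8.28 TPM and the chloride transporter kcc at 139 ± 18.1 TPM.

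Actin and tubulin genes were each dominated by 1 or 2 members. The cytoplasmic actin Act5C was at 365 ± 17.1 TPM, 16.1 ± 1.61 times the other cytoplasmic actin, Act42A, at 22.8 ± 1.53 TPM. Among the muscle actins Act79B was at 44.2 ± 5.6, Act88F at 32.2 ± 18.8, Act57B at 23.2 ± 12.3 and Act87E at 19.1 ± 4.96 TPM. Act88F, the flight muscle actin, was 29.9, 48.7, 11.7, 16.7 and 53.9 TPM, with libraries 2 and 5 high and library 3 low, and Act57B was 45.2 TPM in library 2 against 16.4 to 19.0 TPM in the others. The tubulins alphaTub84B (505 ± 38.0 TPM) and betaTub56D (379 ± 34.4 TPM) stood far above alphaTub84D (82.3 ± 4.66 TPM), and gammaTub37C was at 0.422 ± 0.196 TPM. The actins, and the alpha tubulins, share long identical stretches, so reads may have been divided between members.

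The synaptic vesicle genes that were measured were all expressed. All 20 release genes found were above 2 TPM, while 2 names of that list, Caps and Rbp, matched no gene. cpx (274 ± 34.3 TPM), the calcium sensor Syt1 (272 ± 20.3 TPM), the SNARE protein Snap25 (265 ± 30.1 TPM) and the SNARE-disassembling ATPase comt (253 ± 18.6 TPM) stood at nearly the same level, and the active zone proteins brp (57.1 ± 4.77 TPM) and Rim (24.6 ± 1.86 TPM) lower. All 16 endocytosis genes were expressed as well, with a summed level of 1396 to 1628 TPM. The kinesin unc-104, which carries synaptic vesicle precursors along axons, stood at 385 ± 26.4 TPM, above the kinesin heavy chain Khc at 57.2 ± 1.96 TPM. The neuronal RNA-binding protein elav, used as a pan-neuronal marker, was at only 11.7 ± 0.587 TPM, with 12.7, 11.4, 11.4, 11.3 and 11.8 TPM.

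The genes that mark transmitter types covered a wide range of levels, all 19 above 2 TPM. Gad1 was 637, 565, 615, 555 and 745 TPM in libraries 1 to 5. The vesicular glutamate transporter VGlut was 253, 238, 238, 211 and 232 TPM, and the vesicular acetylcholine transporter VAChT 152, 135, 137, 122 and 163 TPM. Their ranges did not overlap, so the order Gad1, VGlut, VAChT held across all 15 values. Next came a group whose ranges overlapped each with its neighbour: the vesicular monoamine transporter Vmat (86.7 ± 4.97 TPM), the dopa decarboxylase Ddc (78.1 ± 3.62 TPM), the choline transporter ChT (73.2 ± 8.38 TPM), the acetylcholinesterase Ace (70.2 TPM), the vesicular GABA transporter VGAT (69.1 ± 6.14 TPM) and the choline acetyltransferase ChAT (65.5 ± 6.49 TPM). Within this group the range of Vmat, 80.6 to 93.0 TPM, lay wholly above those of Ace, VGAT and ChAT. A gap followed, and then the enzymes and transporters of single monoamines: Tbh for octopamine at 23.1 ± 1.44 TPM, Trhn for serotonin at 18.6 ± 1.58 TPM, the dopamine transporter DAT at 14.1 ± 1.29 TPM, the serotonin transporter SerT at 11.4 ± 1.83 TPM, Tdc2 for tyramine at 10.8 ± 0.225 TPM and the tyrosine hydroxylase ple for dopamine at 6.09 ± 0.927 TPM. Hdc, which makes histamine, was at 2.96 ± 0.457 TPM. Of the 18 neighbouring pairs in this order 8 had ranges that did not overlap. With 5 libraries a paired exact test cannot go below a two-sided p of 0.0625, so no test was made.

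Levels of marker genes for the same transmitter differed from each other. Gad1 was 9.01 ± 0.369 times VGAT, while VAChT was 2.17 ± 0.0906 times ChAT, whose locus it shares. Gad1 was 2.66 ± 0.321 times VGlut, 2.38 in library 2 and 3.21 in library 5. These ratios compare levels per kilobase of different transcripts and do not count neurons.

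**Figure D3:**
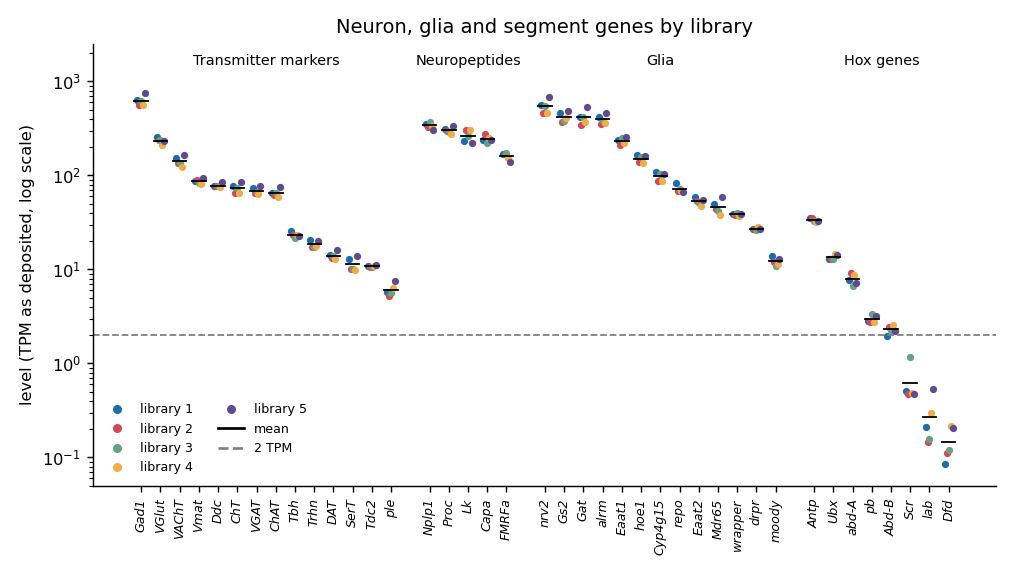
Level of transmitter markers, neuropeptide precursors, glial markers and Hox genes (vertical axis, TPM as deposited, log scale) in each of the 5 uninjured libraries (coloured points), with the mean (bar) and a dashed line at 2 TPM. For most genes the points lie within a narrow band, as for Tdc2 between 10.5 and 11.1 TPM, while Scr, lab and Dfd fall below the line.

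Of 35 receptor genes for acetylcholine, GABA and glutamate, 26 were expressed. The nicotinic subunit nAChRbeta1 led at 116 ± 3.95 TPM, with 115, 119.6, 116, 109.7 and 119 TPM, and its range was above that of every other receptor of the group. The glutamate-gated chloride channel GluClalpha (62.1 ± 2.77 TPM) and the metabotropic GABA receptor GABA-B-R2 (58.5 ± 2.26 TPM) overlapped. They stood above the NMDA receptor subunit Nmdar1 (33.3 ± 2.36 TPM) and the ionotropic GABA receptor subunits Lcch3 (24.2 ± 1.58 TPM) and Rdl (18.3 ± 0.976 TPM). Of the subunits of the receptor at the neuromuscular junction, GluRIIA was at 4.26 ± 0.285 and GluRIIE at 1.30 ± 0.161 TPM, and GluRIIB, GluRIIC and GluRIID at 0.153, 0.260 and 0.304 TPM, the last 3 from counts of 1 to 11 per library. Among 18 monoamine receptors 15 were expressed, and DopEcR, which binds dopamine and ecdysone, was highest at 62.6 ± 2.83 TPM, followed by the serotonin receptor 5-HT7 at 32.0 ± 3.01 TPM. Neighbours in the 2 orders of receptors were apart by range in 11 of 34 and 6 of 17 pairs. The summed levels of acetylcholine, GABA, glutamate and monoamine receptors had CVs of 2.65, 3.48, 3.55 and 2.77%, while those of the cholinergic, GABAergic, glutamatergic and monoamine markers had CVs of 10.1, 11.8, 6.56 and 3.47%.

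All 16 sodium and calcium channel genes were expressed, from NaCP60E (78.0 ± 3.50 TPM) and the NALCN partner unc79 (76.5 ± 4.25 TPM) to the sodium channel para (48.3 ± 1.84 TPM), the synaptic calcium channel cac (48.9 ± 2.02 TPM) and Teh4 (5.26 ± 0.449 TPM). Of 22 potassium channel genes 19 were expressed, led by the inward rectifier Irk2 (98.2 ± 13.4 TPM) and the Shaker regulator qvr (98.1 ± 4.92 TPM). The summed level of the sodium and calcium channels had a CV of 4.35%. The cell recognition families of the nervous system were expressed without exception: all 31 dpr and DIP genes, at a summed level of 469 to 507 TPM, and all 22 beat and side genes, at 357 to 381 TPM.

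Neuropeptide precursors held 0.660 ± 0.0190% of the summed level, and 28 of 48 were expressed. Their levels were uneven, with 5 precursors above 150 TPM: Nplp1 at 340.3 ± 25.2, Proc (proctolin) at 302 ± 23.4, Lk (leucokinin) at 265 ± 40.2, Capa at 244 ± 18.6 and FMRFa at 161 ± 14.4 TPM. Lk was 232, 304, 264, 306 and 219 TPM, with libraries 2 and 4 high, while Proc was 313, 296, 289, 276 and 337 TPM, with library 4 low and library 5 high. The median member of the list stood at 7.46 TPM. Genes that process peptides were high as well, among them the prohormone convertase partner 7B2 at 286 ± 14.9 TPM and the convertase amon at 130.4 ± 6.50 TPM.

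Markers of each glial type were present. Those of astrocyte-like glia were highest: the glutamine synthetase Gs2 at 421 ± 50.6, the GABA transporter Gat at 414 ± 71.7, the leucine-rich repeat protein alrm at 393 ± 47.5 and the glutamate transporter Eaat1 at 235 ± 19.2 TPM. Gat was 415, 340.4, 415, 372 and 529.6 TPM and alrm 414, 350.4, 379, 358 and 466 TPM, with library 5 highest and library 2 lowest for both. The 8 astrocyte-like markers summed to 1581 TPM in library 2 and 2153 TPM in library 5. Of these markers 7 were highest in library 5, beside 771 of all 4866 genes above 10 TPM. The pan-glial transcription factor repo, at 82.4, 68.9, 72.1, 68.3 and 67.3 TPM, had library 1 highest and library 5 lowest. nrv2, in the same pan-glial list, went the other way, at 564, 462, 542, 464 and 678 TPM with library 5 highest, and the list summed to 549 TPM in library 2 and 764 TPM in library 5. The ratio of alrm to repo was 6.92 in library 5 and 5.03 to 5.25 in the other 4. Cortex glia markers stood at 151 ± 12.7 (hoe1), 98.1 ± 10.6 (Cyp4g15) and 38.7 ± 0.829 TPM (wrapper). For the blood-brain barrier, the sugar transporter Tret1-1 was at 83.9 ± 4.02, the drug transporter Mdr65 at 46.6 ± 8.21 and the receptor moody at 12.2 ± 1.14 TPM. Ensheathing glia were represented by the transporter Eaat2 at 53.3 ± 4.27 TPM and the engulfment receptor drpr at 26.8 ± 0.744 TPM. A further name of this list, CG9657, matched no gene. The paper saw Draper protein around the neuropil and also across the cortex of uninjured VNCs, so drpr RNA need not come from ensheathing glia. gcm and gcm2, which start glial fate in the embryo, were at 0.163 and 0.291 TPM.

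The Hox genes expressed were those of the trunk and the head gene pb. Antp was at 33.7 ± 1.40, Ubx at 13.6 ± 0.873, abd-A at 7.84 ± 1.05 and Abd-B at 2.30 ± 0.232 TPM, so that the posterior genes were lower, and Antp was 2.49 ± 0.243 times Ubx. The Hox cofactors exd (58.8 ± 2.34 TPM) and hth (42.4 ± 1.30 TPM) and the trunk gene tsh (24.5 ± 0.633 TPM) were higher. The head genes lab and Dfd were at 0.269 and 0.148 TPM, and Scr, which acts at the border of head and thorax, at 0.621 ± 0.312 TPM, with 1.18 TPM in library 3 and 0.468 to 0.507 TPM in the others. Of 10 transcription factors of the anterior brain, 2 were above 2 TPM, toy (8.76 ± 0.439 TPM) and ey (4.00 ± 0.117 TPM), both of which are also used in the nerve cord. The remaining 8, among them oc, Optix and tll, were at 0.113 to 1.52 TPM. Of 30 transcription factors that mark nerve cord lineages 17 were expressed, the highest being fru at 18.4 ± 0.587 TPM.

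The study asks how VNC glia respond to injury, and the resting levels of the genes in that pathway form the baseline. All 16 genes of the engulfment list were expressed at rest, from the adaptor Crk at 54 ± 1.80 TPM to the kinase Src42A at 3.29 ± 0.527 TPM. drpr was 26.7, 26.7, 26, 28.0 and 26.6 TPM, with no library apart. The transcription factors Stat92E, kay and Jra, the last 2 of which form AP-1, stood at 35.8 ± 2.58, 26.3 ± 1.37 and 21.5 ± 1.22 TPM. The metalloproteinase Mmp1 was low, at 6.88, 6.17, 8.14, 5.59 and 7.56 TPM, beside Mmp2 at 17 ± 0.777 TPM and the inhibitor Timp at 35.6 ± 1.06 TPM. Libraries 4 and 2 were lowest for Mmp1. The summed level of the list was 309.3 to 318 TPM, a CV of 1.06%, and that of 11 genes of axon degeneration and repair, among them hiw, bsk, wnd and puc, was 264 to 270.5 TPM, a CV of 0.940%. Single members above 2 TPM had median CVs of 5.04% and 6.75% in these lists, and reached 27.0% and 12.3%. On TMM scaling (edgeR's trimmed mean of M values) the ratio of the highest to the lowest library was 1.07 and 1.08 for these lists, against 1.03 and 1.03 on the deposited scale.

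Immune and stress genes were low but not silent. Of 22 antimicrobial peptide genes 9 were expressed, with Drs highest at 27.2 ± 8.39 TPM, and their summed level was 63.4, 90.3, 109, 109 and 78.7 TPM, lowest in library 1. Of 23 genes of Toll and Imd signaling 22 were expressed, led by Diap2 at 52.8 ± 3.79 TPM. All 13 inducible heat shock genes were above 2 TPM, with Hsp67Ba at 26.7 ± 2.36 and Hsp23 at 24.5 ± 3.25 TPM, while the constitutive chaperone Hsc70-4 was at 500.2 ± 21.2 TPM. The Hsp70 genes are near-identical copies and their separate levels are uncertain. Among the iron-handling genes the transferrin Tsf1 was at 456 ± 29.1 TPM and the ferritin Fer1HCH at 186 ± 7.75 TPM. Of the 9 clock genes all were expressed, with cry at 40.2 ± 2.31, tim at 29.5 ± 2.21 and per at 10.2 ± 0.840 TPM.

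Classes of other tissues were mostly below 2 TPM. Of 59 odorant receptors 9 were expressed, of 59 gustatory receptors 6, of 60 ionotropic receptors 7 and of 109 cuticle proteins 10, and none of the 12 trachea and cuticle markers was. Of 15 photoreceptor markers 4 were above 2 TPM. norpA, a phospholipase C of phototransduction, was at 27.2 ± 1.62 TPM in even amounts. The rhodopsin ninaE was 17.6, 4.62, 11.9, 3.27 and 6.61 TPM, with libraries 1 and 3 high. Of 23 male reproductive tract markers 9 passed 2 TPM, and Acp95EF, at 57.9 ± 6.15 TPM, was the only one above 5 TPM. In contrast, 21 of 24 muscle markers, 12 of 13 fat body markers, 10 of 11 hemocyte markers, 12 of 17 female germline markers and 21 of 38 gut digestive enzymes were above 2 TPM. The highest level in the muscle list, 196 TPM, was that given for Msp300 above. Other muscle markers were at modest levels, such as Mlc2, a myosin light chain, at 124 ± 19.1 TPM and the myosin heavy chain Mhc at 42.9 ± 2.36 TPM. The dosage compensation RNA roX1, made in males, was at 99.6 ± 7.89 TPM, with a ratio of 1.20 between the highest and lowest library.

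The 5 libraries were close for most genes. Over the 9150 expressed genes the median CV was 9.62%, with quartiles of 6.09 and 16.2%, and among the 4866 genes above 10 TPM it was 6.91%. Counting error is part of it, and the median CV beyond counting was 5.69% and 5.01% for the same sets. The biological CV that edgeR estimated over the expressed genes was 15.1% in common and 11.7% for the median gene. In simulated data both values came back too high where some genes spread widely. Of the genes above 10 TPM, 3617 had a CV under 10%, and for 90.8% the highest library was less than 1.5 times the lowest. The genes of neurons and glia were slightly more even than that. The 217 members above 10 TPM of 23 lists of neurons and glia had a median CV of 5.97%, and 0 had a CV over 40%. Their median level was also higher, 32.8 TPM against 21.4 TPM for all genes above 10 TPM, and the CV beyond counting was not compared. Those lists do not include the neuropeptides, of which 1 of 21 above 10 TPM had such a CV, Nplp3 at 64.4%. They also leave out the genes that neuronal activity regulates, of which 1 of 8 above 10 TPM had such a CV, Hr38 at 44.7%. The 58 members above 10 TPM of 9 lists of other tissues had a median CV of 36.7%. Of these members 25 (43.1%) were over 40%, beside 97 (1.99%) of all genes above 10 TPM. By their member counts these lists were muscle, fat body, yolk, hemocyte, gut, female germline, male tract, photoreceptor and antimicrobial peptide genes. The last is not a tissue list. Digestive enzymes, yolk protein genes and female germline markers made up 11, 3 and 5 of the 25, and genes of a list are not independent.

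**Figure D4:**
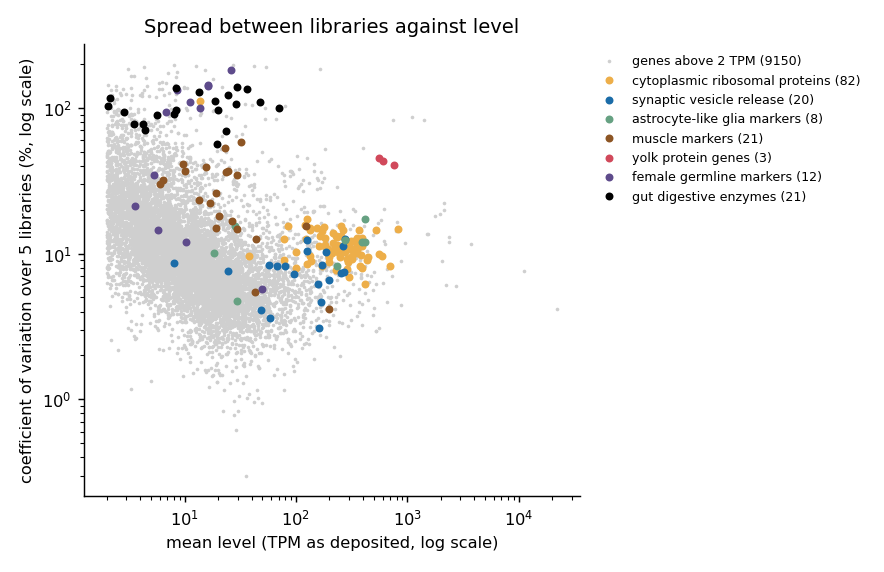
Coefficient of variation over the 5 uninjured libraries (vertical axis, %, log scale) against mean level (horizontal axis, TPM as deposited, log scale) for the 9150 expressed genes (grey) and 7 gene lists (coloured, number shown). Synaptic vesicle release and astrocyte-like glia genes lie within the main cloud, whereas gut digestive enzymes, yolk protein genes and some female germline markers lie above it.

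The most even genes were of no single class. Chmp1, of the ESCRT complex, was 35.6, 35.3, 35.4, 35.4 and 35.4 TPM (CV 0.30%), and Not3, of the deadenylase complex, 28.9, 28.9, 28.5, 28.5 and 28.6 TPM (CV 0.618%). At mean counts of 348 for Chmp1 and 1008 for Not3 these CVs are below counting error. Among the genes above 100 TPM the most even were the GTPase Arf1 (103 ± 1.85 TPM, CV 1.80%), the transcription factor crc (146 ± 2.78 TPM, CV 1.90%), the cyclophilin Cyp1 (247 TPM, CV 1.97%) and the mitochondrial channel porin (221 ± 5.04 TPM, CV 2.29%). The 20 genes often used for normalization in Q-PCR ranged from a CV of 1.89%, for the initiation factor eIF1A at 98.8 ± 1.87 TPM, to 20.3%, for eEF1alpha1, and those above 2 TPM had a median CV of 7.05%. RpL32 was 230.1, 246, 222, 274 and 193 TPM (CV 13%), highest in library 4 and lowest in library 5, and RpL28 79.6, 79.2, 75.5, 86.4 and 67.1 TPM (CV 9.06%) with the same highest and lowest library. Act5C had a CV of 4.69%.

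The 97 genes above 10 TPM with a CV over 40% fell to a few libraries. The highest library was number 4 for 39 of them and number 2 for 32, and the lowest was number 5 for 45. Among all 4866 genes above 10 TPM, library 4 was highest for 1272, library 2 for 801, and library 5 lowest for 1632. By list, all 3 yolk protein genes, all 11 gut digestive enzymes above 10 TPM and 5 of 7 female germline markers were among them, against 1 of 82 ribosomal protein genes. Those 5 were the eggshell genes Cp15, Cp18, Cp19, Cp36 and Cp38, which are genes of follicle cells and not of the germline itself. The part of RNA from gut, ovary or fat body in the other differences between libraries was not tested.

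The genes with the highest level in library 4 included the most abundant of the wide ones. whe was 525, 2481, 1357, 2639.8 and 26.3 TPM, CG16826 324, 1638, 1183, 2351 and 29.0 TPM, and lcs 235, 1093, 863, 1505 and 17 TPM. In each of the 3 the libraries stood in the order 5, 1, 3, 2 and 4 from low to high, and the highest was 100.4, 81.1 and 88.4 times the lowest. The same order was found in Ag5r, a member of the antigen 5 family, at 21, 103, 64.3, 135 and 3.89 TPM, and in CG34212, CG33109 and CG13947. It was also that of the yolk protein genes, which summed to 1321, 2548, 1957, 2868 and 895 TPM, a ratio of 3.21. Yp1 alone was 541, 1001, 762, 1122 and 377 TPM. Library 5 was lowest for all of these, by a wide margin for CG33109 (31.1, 129, 37.5, 196 and 1.45 TPM), for which library 1 was close to library 3.

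Most female germline markers were also highest in library 4, 9 of the 12 expressed ones, and none was highest in libraries 2, 3 or 5. Among all 4866 genes above 10 TPM, a stricter cutoff, library 4 was highest for 1272. Cp15, an eggshell protein made by follicle cells, was 10.9, 6.14, 1.69, 111 and 0.443 TPM. Its count of 2 in library 5 is near the minimum of the table. Cp36 was 3.34, 22.7, 0.389, 54.6 and 0.204 TPM, with libraries 4 and 2 on top. The germline thioredoxin dhd was 12.6, 41.8, 22.8, 95.9 and 2.28 TPM. osk, which assembles germ plasm, was 1.71, 12, 1.25, 26.9 and 0.596 TPM. RpS5b, the ribosomal protein paralog of the germline, was 6.00, 11.9, 7.76, 40.3 and 2.40 TPM. dhd and RpS5b, which are not in the marker list, had the order of libraries of whe and the yolk genes, whereas Cp19 was highest in library 1, at 32.0 TPM. The 17 female germline markers summed to 166, 170, 87.2, 394 and 72.7 TPM. Without library 4 the ratio of highest to lowest was 2.34, against 5.42 with it. stau, which neurons also use, was even at 49.5 ± 2.81 TPM, as was orb at 10.3 ± 1.24 TPM.

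Digestive enzymes were highest in library 2 as a sum, and singly for 14 of the 21 expressed ones. Among all 4866 genes above 10 TPM, a stricter cutoff, library 2 was highest for 801. The 38 genes summed to 1007 TPM there and to 191, 324, 239 and 219 TPM in libraries 1, 3, 4 and 5. The amylase Amy-p was 6.92, 101, 19.8, 11 and 7.45 TPM, the maltase Mal-A1 6.13, 78.5, 17.8, 10.8 and 10.2 TPM, and the trypsin alphaTry 22.5, 191, 61.7, 31.1 and 43.4 TPM. In all 3 library 2 was highest and library 3 next. Amy-p and Amy-d, and the trypsins of 1 cluster, are close copies, so these are not independent measurements. The genes whose level in library 2 was farthest from the other libraries were the mucin Muc68D (4.76, 188, 4.25, 9.79 and 4.37 TPM), CG3906 (1.51, 123, 1.66, 7.50 and 3.22 TPM), CG34324 (6.75, 236, 5.14, 15.8 and 3.20 TPM), CG14125 (1.76, 56.4, 1.14, 2.74 and 0.928 TPM) and CG14645 (24.8, 712, 16.7, 51.6 and 22.9 TPM). For all 5 the next highest was library 4. Muscle markers summed to 846 TPM in library 2, the highest, and 638 TPM in library 1, the lowest.

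Other libraries had their own genes. Fbp1, a protein of the fat body, was 22.2, 4.62, 0.313, 0.340 and 55.0 TPM, and CG6277 31.4, 5.26, 0.700, 0.543 and 70.4 TPM, with library 5 highest and library 1 next. Fbp2, CG8661 and the larval serum proteins Lsp1alpha, Lsp1beta and Lsp1gamma had the same 2 libraries on top, whereas Lsp2 was highest in library 3 (19.0, 34.3, 40.2, 15.5 and 33.5 TPM). The fat body list as a whole was less uneven, at 507 to 607 TPM, with apolpp and the fatty acid synthase FASN1 making up most of it. Obp99b, an odorant-binding protein, was 26.6, 10.8, 3.70, 5.23 and 46.3 TPM, with libraries 5 and 1 on top as well. In library 3 CG8343 was 64.1 TPM against 1.08 to 4.25 TPM elsewhere. CG12374 was high in libraries 2 and 3, at 95.5 and 119 TPM, and at 3.90, 37.8 and 6.00 TPM in libraries 1, 4 and 5. The cytochrome P450 Cyp4g1, which makes cuticular hydrocarbons in oenocytes, was 269, 212, 123, 253 and 47.0 TPM.

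Of 10 genes that neuronal activity regulates, 3 differed widely between libraries. Hr38, a nuclear receptor, was 85.5, 51.1, 79.9, 18.7 and 62.0 TPM, sr, the fly EGR factor, 27.7, 17.1, 29.5, 11.6 and 24 TPM, and CG14186 275, 179, 284, 143 and 278 TPM. All 3 were lowest in library 4 and next lowest in library 2. The 10 genes of the list summed to 344 to 563 TPM, a CV of 20.2%, beside a CV of 7.85% for the 13 neuron markers. Of the neuron markers 12 were lowest in library 4 as well, beside 947 of all 4866 genes above 10 TPM. The median CV of the 10 members was 6.24%. kay and Jra, also in the list, had CVs of 5.20 and 5.71% and did not share the pattern.

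A smaller difference ran through the abundant classes. Ribosomal protein genes summed to 20961, 23036, 22072 (libraries 1 to 3), 25425 and 19292 TPM, a ratio of 1.32, and 68 of the 82 genes above 10 TPM were highest in library 4 and lowest in library 5, beside 596 (12.2%) of all 4866 genes. Synaptic vesicle release genes ran the other way, at 2858, 2718, 2788, 2519.9 and 3108 TPM, a ratio of 1.23. Of 42 synaptic and neuron marker genes above 10 TPM 22 were highest in library 5 and lowest in library 4, beside 274 (5.63%) of all. Among single genes the order 5, 1, 3, 2 and 4 from low to high was the most frequent of the 120 possible, with 190 of 4866 genes (3.90%) against a mean of 40.6 per order, and 40 of 82 ribosomal protein genes (48.8%) had it. The reverse order, with library 5 highest, was found in 95 (1.95%) of all 4866 genes. Of the 4 cholinergic markers 3 had it: ChAT, VAChT and ChT. So did 7 of 19 synaptic vesicle release genes above 10 TPM, among them nSyb, Syt1 and cpx, and 4 of 13 neuron markers, among them para. Genes of 1 class are not independent of each other, and no test was made of these counts.

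The scaling between libraries moves these counts. Levels of all genes in library 4 relative to library 5 fall by 0.13 on the log2 scale with TMM, by 0.10 with DESeq2 size factors and by 0.14 when TPM is made to sum to 1 M. On these 3 scales 53 to 55 ribosomal protein genes were highest in library 4 and lowest in library 5, and 35 synaptic and neuron marker genes showed the reverse. The summed levels of both lists kept the same order of libraries on all 4 scales, with ratios of 1.20 to 1.32 for ribosomal proteins and 1.23 to 1.36 for synaptic vesicle release. The single-gene order was found in 84 to 113 genes and 22 or 23 ribosomal proteins.

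**Figure D5:**
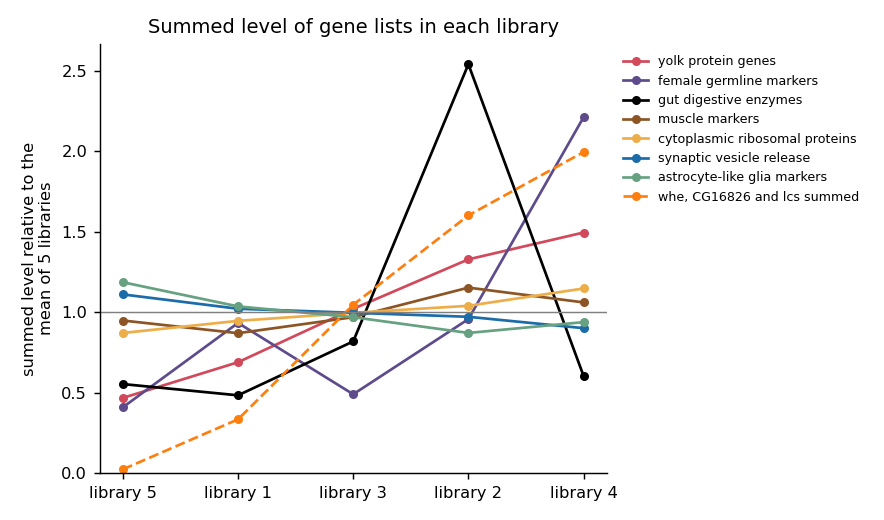
Summed level of 7 gene lists and of whe, CG16826 and lcs together, relative to the mean of the 5 uninjured libraries (vertical axis), in each library (horizontal axis, arranged by the summed yolk protein level). Lines only join the values of a list. Yolk protein genes go from 895 TPM in library 5 to 2868 TPM in library 4, digestive enzymes peak at 1007 TPM in library 2, and synaptic vesicle release stays between 2519.9 and 3108 TPM.

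Over all expressed genes the libraries nonetheless lay at comparable distances. On log2 CPM (counts per M gene counts, prior count 2) Pearson's r across genes was 0.967 to 0.988 and Spearman's rho 0.976 to 0.991 for the 10 pairs, which describe these libraries, since genes are not independent. The nearest pair was libraries 1 and 5, at a Euclidean distance of 33.8, and the farthest libraries 4 and 5, at 55.9, a ratio of 1.66. The first principal component held 50.1% of the variance and placed the libraries at -29.2 (library 5), -14.9 (library 1), 5.20 (library 3), 15.2 (library 2) and 23.8 (library 4). This is the order of whe, of the yolk proteins and of the summed ribosomal proteins. Fbp1, Cp38, CG6277 and whe had the largest weights on it. The 100 genes with the largest weights held 53.5% of the component. Leaving out the muscle and gut lists kept 9108 of 9150 genes and left the ratio at 1.66 and the order as it was. Fbp1, Cp38, CG6277 and whe are in neither list, so the order without genes of ovary or fat body was not tested.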

How the data were processed

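Total RNA (325 ng) from 5 uninjured pools was depleted of rRNA with a kit for human, mouse and rat and sequenced as 100 bp single reads. The authors aligned the reads with BWA through GeneSifter to Release 5.57 of the fly genome; no version is named in the sources read here. The deposited counts were recalculated by the authors from a normalized value, so they are treated as estimated counts; each lay within 0.00063 of a whole number and was rounded. What the authors call TPM follows the formula of RPKM, since counts per kb per M mapped reads gave the deposited values within a relative 3.62e-06. The deposited table of sequencing metrics gives the percentage of bases at Q30 or above, 94.85 to 95.05% per library. No source says that strand entered the counting, so sense and antisense genes cannot be told apart.

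Of 14352 rows, 1 was left out. Names came from BDGP6 and RefSeq tables, which matched 13159 IDs directly and 456 by name, and 736 kept the name in the file. In the gene lists 30 names matched no gene, so the counts given for a list cover only the names found. Among those not found were Ced-6 of engulfment, dbt of the clock, and Nc73EF and ScsalphaA of the TCA cycle. Spread was computed from the deposited TPM, and the biological CV with edgeR 4.0.16 (R 4.3.3) on the counts. TMM (edgeR) and DESeq2 1.42.0 size factors served as other scalings. In data simulated for 9150 genes with a biological CV of 10%, edgeR's common value came back as 9.954% without and 18.31% with 200 genes of wide spread, and 195 of those 200 were recovered. With them present, the median value of the other genes came back as 15.37%. The median CV beyond counting, for other genes above 200 counts, came back as 9.027%.

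Genes were named by a rule: the 20 highest by TPM and by count, the 12 highest protein-coding genes outside translation lists, up to 5 highest members and all members below 2 TPM of each list, all members of the actin, tubulin, transmitter, Hox, glial, engulfment and reference lists, the 15 genes of highest and lowest CV above 10 and above 100 TPM, and 10 genes per library farthest from the others. Adh, Adhr, Ag5r, Fbp2, Ggamma1, Khc, Ldh, Lsp1alpha, Lsp1beta, Lsp1gamma, Mal-A1, Nplp3, Rim, Teh4, brp, cac, elav, nSyb, orb, osk, para, per and puc were chosen after their values were seen. Members and lists were chosen with earlier results of these data known. The p-values of the study's own comparison and the injured libraries were not used, and no sequences are shown. Whether the 5 pools were dissected separately in time is not stated, so the spread may be partly technical.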

Additional observations from a re-analysis of the deposited data

Results flagged for a closer look

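A library was set apart for a list or a named gene where its gap to the nearest other library exceeded 0.71 of the range of all 5 (Dixon's limit). Chance does so for about 1 in 20 groups, and 293 of 4866 genes above 10 TPM (6.02%) met it. Among 82 lists it was met by 3. The digestive enzymes summed to 1007 TPM in library 2 against 191 to 324 TPM in the others. The circadian clock genes summed to 213.7 TPM in library 5 against 223 to 226 TPM, and the reference genes to 4675 TPM in library 4 against 4344 to 4406 TPM, both small differences. On TMM, DESeq2 and sum-to-1 M scaling library 4 was the lowest for the clock genes and library 5 the highest for the reference genes, so both hold on the deposited scale only.

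Of 223 genes tested, 21 (9.42%) met it, 10 of them through library 2. These 10 were CG14645 at 712 TPM in that library, CG34324 at 236 TPM, alphaTry at 191 TPM, Muc68D at 188 TPM, Amy-d at 124 TPM, CG3906 at 123 TPM, Amy-p at 101 TPM, Mal-A1 at 78.5 TPM, CG14125 at 56.4 TPM and Act57B at 45.2 TPM. Of these genes, Act57B was nearest to the other libraries, which held 16.4 to 19.0 TPM. Library 5 stood apart for 6 genes: it was high for nrv3 (364 TPM against 278 to 302), Cyp1 (256 TPM against 245) and Hsp23 (30.2 TPM against 22.5 to 23.9), and low for sncRNA:765 (20695 TPM against 22448 to 23105), Msp300 (181.7 TPM against 199 to 202) and Tret1-1 (76.8 TPM against 84.9 to 86.6). In library 4 Cp15 was at 111 TPM and RpS5b at 40.3 TPM, in library 3 CG8343 at 64.1 TPM and Scr at 1.18 TPM, and in library 1 the dynein heavy chain Dhc64C at 153 TPM against 139 to 143 TPM. Many of these genes were named because their levels spread widely, so the share of 9.42% is no estimate for genes at large.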

How the results depend on the processing

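The number of expressed genes stayed within 1.5 times 9150 under every alternative tried, from 7051 above 5 TPM to 11203 when TPM was made to sum to 1 M. The 20 most abundant genes held 21.8% of the summed level in place of 10.6% of the counts, and 9.09% among protein-coding genes. Ribosomal proteins held 2.89% of counts and 9.64% of the level of protein-coding genes, against 7.29%. The median CV of 9.62% became 14.5% with no filter, 6.91% above 10 TPM, and 8.86 to 9.72% when each library was left out. The distance ratio of 1.66 became 1.46 with no filter and 1.28 with unit variance. For digestive enzymes the ratio of 5.27 became 2.21 as a median over members, and it ranged from 1.70 without library 2 to 5.27 when each library was left out. The 8 transmitter pairs apart by range became 10 on counts and 7 to 9 with a library left out.

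Of 54 class shares, 51 moved by more than 1 SD when taken as shares of counts. Of 26 marker list ratios, 17 moved on TMM scaling and 15 as a median over members, as did 43 of 130 with a library left out. Chosen after seeing the data, TMM and DESeq2 scaling gave 87 and 88 genes of wide spread in place of 97, and leaving out each library 90 to 110. The causes were not tested. No paired analysis was possible because only 1 group is described and the count columns carry no replicate label shared with another group. Genes with few counts, and transcripts shorter than a read, have the least certain levels.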
